A study of Mus musculus with 12 samples.

Results

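The genes described here are 10 targets and companions of NRF2, the transcription factor that governs the antioxidant response: Nfe2l2, Sqstm1, Hmox1, Nqo1, Slc7a11, Gclc, Gclm, Txnrd1, Srxn1 and Sod2. They were chosen by name, with earlier results of these data known. Each was measured by the array probe set annotated with that gene symbol alone (the brightest on average where there were several). All 10 were found among the 22180 genes with such a probe set. Dendritic cells were grown from the bone marrow of 8-week-old Arc/Arg3.1 knockout and wildtype mice on a C57BL/6 background, labelled male, with GM-CSF at 20 ng/ml, and semi-adherent cells were taken on day 7. Arc/Arg3.1 is switched on quickly by synaptic activity in neurons, and LPS is the bacterial cell wall component that Toll-like receptor 4 senses. The 4 groups, with 3 arrays each, were knockout cells given LPS at 100 ng/ml for 30 min, knockout cells given medium alone, wildtype cells given the same LPS treatment, and wildtype cells given medium alone. All cells were then washed and left for 1 h without LPS, so the readout is early.

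NRF2, the product of Nfe2l2, is held at a low level in resting cells because KEAP1 delivers it to a CUL3 ubiquitin ligase for degradation. Electrophiles and oxidants disable KEAP1, and the autophagy adaptor p62, the product of Sqstm1, competes for it. NRF2 that escapes pairs with small MAF proteins at antioxidant response elements, where BACH1 otherwise represses, and turns on genes for glutathione synthesis, thioredoxin recycling and quinone and haem breakdown. In phagocytes the same genes can also be driven by Toll-like receptor signals, and Sod2 is a classical NF-kB target.

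The arrays carry several features that bear on what follows. The signal of Arc was 7.68 to 8.05 (log2) on the 6 knockout arrays, against 9.21 to 9.62 on the 6 wildtype arrays. Arrays differed in 2 respects that the labels do not give: 3 arrays (untreated knockout 2, LPS-treated knockout 2 and LPS-treated wildtype 1) had Y-linked signal and Xist at 5.63 to 5.76, while the other 9 had Xist at 11.22 to 11.92, against their male label. LPS arrays 2 and 3 of both genotypes were low in small RNA signal (median of 78 Snora, Snord and Scarna genes 9.73 to 9.87, against 10.44 to 11.04 on the other 8 arrays). The 3 untreated wildtype arrays were closely alike among brighter genes: the SD of their differences was 0.105 to 0.108 over 6440 genes of mean log2 signal above 8, against 0.193 to 0.438 for the 9 pairs within the other groups. Over all genes the gap was narrower, at 0.226 to 0.232 for the untreated wildtype pairs, against 0.247 to 0.435 for the others. The labels name these arrays biological replicates 1, 2 and 3. On the ground of the brighter genes, the mean of these 3 arrays was counted as 1 sample, and results with 12 separate samples are given beside. The 9 measured dendritic cell markers were above the background of probe sets without a gene in every group, with a mean log2 signal of 10.76 or more on each array.

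After LPS, 7 of the 10 genes were higher in knockout cells and 6 of the 10 in wildtype cells, and none was lower in either genotype. The gene with the largest difference was Txnrd1, at 3.67 times the untreated signal in knockout cells and 3.64 times in wildtype cells. Nfe2l2, Sqstm1, Slc7a11, Srxn1 and Sod2 were also higher in both genotypes, and Hmox1 passed the test in knockout cells. Nqo1, Gclc and Gclm did not pass the main test in either genotype. In the limma fit across all genes, with a threshold of 0.05 on the Benjamini-Hochberg adjusted p, 5.91% of genes passed in knockout cells and 1.57% in wildtype cells. The wildtype comparison rests on 1 averaged untreated sample, so it is the less precise of the 2. Its 95% intervals had a median half-width of 0.42 over all genes, against 0.30 in knockout cells. With 12 separate samples 9.11% of genes passed in knockout cells and 8.64% in wildtype cells. Most of the 10 genes are bright, and the share was larger among brighter genes. In a fit of the 11090 genes above the median signal, 15.1% passed in knockout cells and 4.04% in wildtype cells. Of the 9 described genes in that fit, 7 and 6 passed. The direction was one-sided among the 10 genes, whereas 2.98% of all genes were higher and 2.93% lower in knockout cells, and 1.34% were higher and 0.234% lower in wildtype cells. The median log2 difference of the 10 genes was 0.91 in knockout cells and 0.94 in wildtype cells, beside medians of -0.0037 and -0.0053 over all genes. Because the 10 were chosen with earlier results of these data known, the values over all genes are given as description only. Set directly against each other, none of the 10 passed between knockout and wildtype cells, with or without LPS. In bulk RNA, fewer cells of a type and less RNA per cell cannot be told apart.

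**Figure D1:**
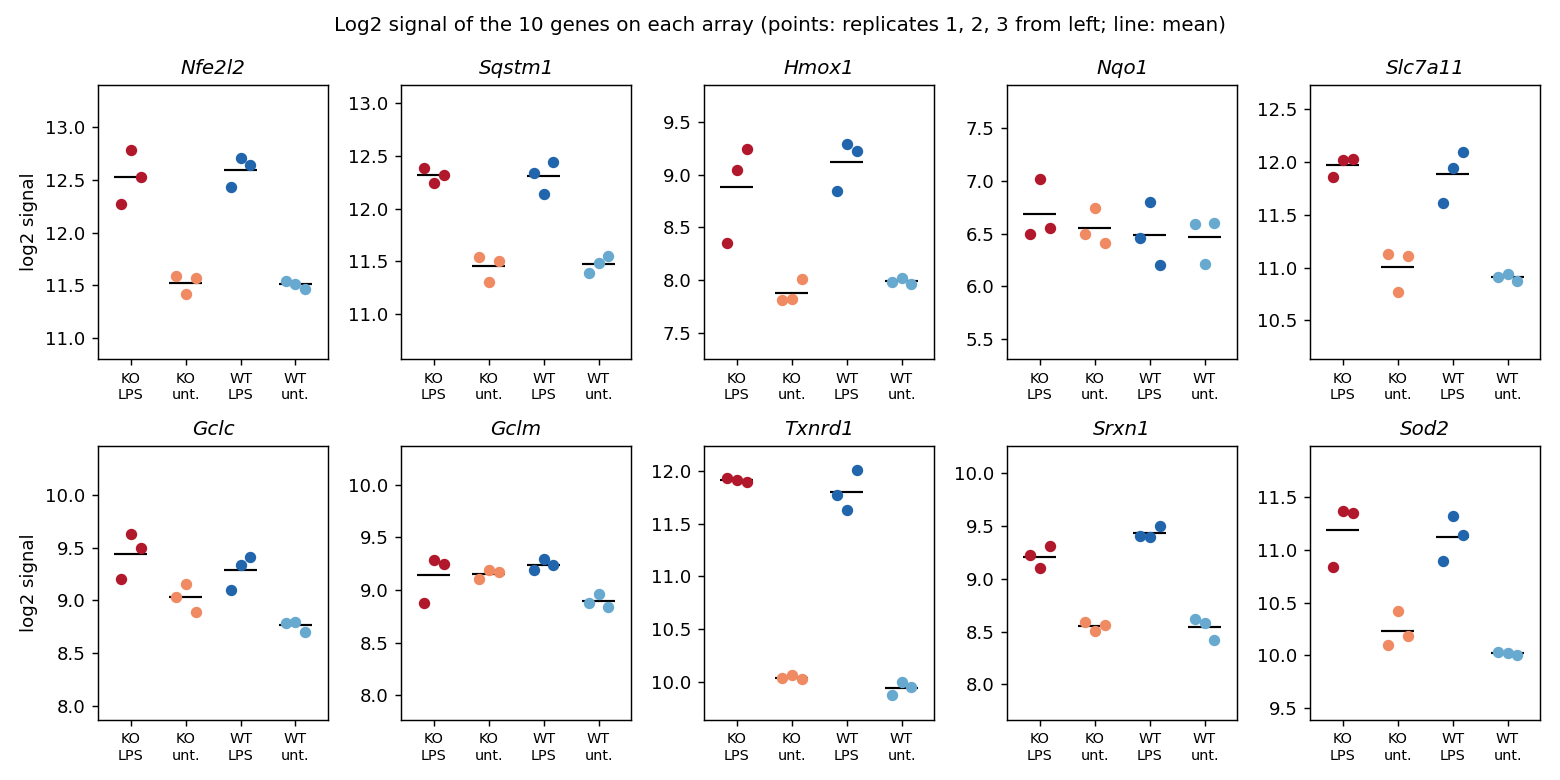
Log2 signal of the 10 genes on each of the 12 arrays, 1 panel per gene, with LPS-treated and untreated knockout cells to the left of LPS-treated and untreated wildtype cells; points are arrays and lines are group means. The LPS arrays of 8 genes lie above the untreated arrays in both genotypes; those of Gclm do so in wildtype cells only, and those of Nqo1 overlap in both.

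Upstream sequence is shown for 5 of these genes, because 4 of them were higher after LPS while Gclm did not pass, and all hold a motif that bears on NRF2 or its neighbours. The sequences are the 250 bases before a gene start in RefSeq (GRCm38.p6), 5′ to 3′ on the gene's own strand, with motif matches in capitals. The antioxidant response element core was searched as TGACNNNGC and TGAGNNNGC on both strands, the amino acid response element core as TGATGNAA, and the NF-kB motif by its consensus. The Srxn1 window is chr2:152105274-152105523 on the plus strand, with capitals at 2 antioxidant response element matches.
Srxn1: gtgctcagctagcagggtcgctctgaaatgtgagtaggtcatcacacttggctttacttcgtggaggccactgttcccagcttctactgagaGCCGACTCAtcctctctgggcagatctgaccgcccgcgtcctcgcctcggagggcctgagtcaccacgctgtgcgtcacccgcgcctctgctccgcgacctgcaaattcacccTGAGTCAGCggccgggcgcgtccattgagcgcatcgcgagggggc
The Slc7a11 window is chr3:50443614-50443863 on the minus strand, with capitals at 1 antioxidant and 2 amino acid response element matches.
Slc7a11: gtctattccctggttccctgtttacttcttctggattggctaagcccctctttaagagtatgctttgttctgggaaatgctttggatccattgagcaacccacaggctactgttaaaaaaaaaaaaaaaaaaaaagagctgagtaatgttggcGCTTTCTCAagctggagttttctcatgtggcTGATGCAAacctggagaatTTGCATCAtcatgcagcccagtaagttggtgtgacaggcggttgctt
Txnrd1 has 3 listed starts, and the window that holds a match, 1 to the antioxidant response element, is chr10:82858956-82859205 on the plus strand.
Txnrd1: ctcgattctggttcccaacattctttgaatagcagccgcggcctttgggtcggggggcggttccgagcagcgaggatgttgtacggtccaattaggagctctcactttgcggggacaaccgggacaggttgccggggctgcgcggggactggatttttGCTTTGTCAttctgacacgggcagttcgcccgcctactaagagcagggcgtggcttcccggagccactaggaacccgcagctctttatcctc
The Gclm window is chr3:122245307-122245556 on the plus strand, with capitals at 1 antioxidant response element match.
Gclm: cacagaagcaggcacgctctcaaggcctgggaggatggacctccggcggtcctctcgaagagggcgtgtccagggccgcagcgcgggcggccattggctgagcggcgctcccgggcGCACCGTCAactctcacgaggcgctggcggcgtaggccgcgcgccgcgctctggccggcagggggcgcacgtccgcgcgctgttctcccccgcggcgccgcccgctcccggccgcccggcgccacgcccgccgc
The Sod2 window is chr17:13007589-13007838 on the plus strand, with capitals at 1 stretch that matches the NF-kB consensus on both strands.
Sod2: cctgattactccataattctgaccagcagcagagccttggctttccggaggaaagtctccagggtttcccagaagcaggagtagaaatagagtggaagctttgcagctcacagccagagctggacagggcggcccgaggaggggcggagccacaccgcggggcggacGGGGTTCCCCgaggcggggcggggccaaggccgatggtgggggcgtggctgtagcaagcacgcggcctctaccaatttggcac

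Windows reaching from 250 bases before to 50 after the start were listed for 8 of the 10 genes (10 windows), those of Hmox1 and Gclc not being in the table. Either antioxidant response element form occurred in 5 of the 10 windows (50%), against 27.8% of 32851 windows of the same length over all genes. TGACNNNGC occurred in 4 of the 10 (40%), against 12.4% of all windows. TGAGNNNGC occurred in 2 of the 10 (20%), near its share of 17.6% in all windows. The capitals in Srxn1 and the antioxidant response element match in Slc7a11 are of the TGAGNNNGC form. One match in Srxn1, TGAGTCAGC, lies 45 to 37 bases before the start, and the same gene has a further match on the opposite strand 158 to 150 bases before the start and another 28 to 36 bases after it, beyond the printed stretch. In Txnrd1, Slc7a11 and Gclm the match lies 92 to 84, 97 to 89 and 134 to 126 bases before the start, in each case on the opposite strand. Nfe2l2 itself has TGACTCCGC 240 to 232 bases before its start. The amino acid response element core, which ATF4 and ATF3 bind with C/EBP partners, was found only in Slc7a11 among the 10 windows, at 66 to 59 and, on the opposite strand, 47 to 40 bases before the start, and occurred in 3.97% of all windows. The NF-kB consensus occurred in Sod2 (83 to 74 bases before the start) and Sqstm1 (18 to 9), and in 8.46% of all windows. None of these motifs was found in the Nqo1 window. A match describes the letters of a window: Gclm holds one and did not pass the test after LPS, and Sqstm1, which passed, holds only the NF-kB consensus.

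Nfe2l2 encodes NRF2 itself. Its log2 signal was 12.27, 12.79 and 12.53 in LPS-treated knockout cells, against 11.59, 11.42 and 11.57 in untreated knockout cells. In wildtype cells it was 12.43, 12.71 and 12.64 with LPS, against 11.55, 11.52 and 11.47 without. Every LPS array lay above every untreated array in both genotypes, so the transcript of the regulator was itself higher after LPS. The log2 difference was 1.00 ± 0.14 in knockout cells (SE, limma adjusted p = 0.0023), a 2.00-fold ratio of signals, and 1.08 ± 0.20 in wildtype cells (adjusted p = 0.0251), a 2.12-fold ratio. The wildtype call was lost without LPS-treated knockout 3 (adjusted p = 0.0506), LPS-treated wildtype 2 (0.0697) or LPS-treated wildtype 3 (0.0765).

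Sqstm1, which encodes p62, the adaptor that carries ubiquitinated cargo to autophagosomes and binds KEAP1, read 12.38, 12.25 and 12.32 in LPS-treated knockout cells, against 11.55, 11.31 and 11.51 in untreated knockout cells. The wildtype arrays read 12.34, 12.14 and 12.44 with LPS, against 11.39, 11.49 and 11.55 without. The LPS arrays of the 2 genotypes were interleaved, and all 6 were above the untreated ones. The log2 difference was 0.86 ± 0.12 in knockout cells (SE, limma adjusted p = 0.00155; 1.82-fold) and 0.83 ± 0.16 in wildtype cells (adjusted p = 0.0355; 1.78-fold). The knockout call held with any 1 array left out, while the wildtype call was lost without untreated knockout 1 or 3, LPS-treated knockout 3, or LPS-treated wildtype 1 or 3, with adjusted p of 0.0533, 0.0637, 0.0667, 0.0723 and 0.101 in that order.

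Hmox1, haem oxygenase 1, breaks haem down to biliverdin, carbon monoxide and iron. Its log2 signal was 8.35, 9.05 and 9.24 in LPS-treated knockout cells, against 7.81, 7.82 and 8.01 in untreated knockout cells, and 8.85, 9.30 and 9.22 in LPS-treated wildtype cells, against 7.98, 8.02 and 7.96 in untreated wildtype cells. The LPS arrays were above the untreated ones in both genotypes, with replicate 1 the lowest LPS array in each. The log2 difference was 1.00 ± 0.21 in knockout cells (SE, limma adjusted p = 0.0191), a 2.00-fold ratio. In wildtype cells it was 1.13 ± 0.30 (adjusted p = 0.110; 95% interval 0.48 to 1.79), and it passed only with 12 separate samples (adjusted p = 0.00225), with 12 separate samples and the replicate number as a block (0.000796), with array weights (0.00203) or without LPS-treated knockout 1 (0.0176). The knockout call was lost without untreated knockout 1, 2 or 3 (adjusted p of 0.0696, 0.0682 and 0.0503), without LPS-treated knockout 3 (0.0822), and without the 3 arrays with Y-linked signal (0.0981). The other 6 calls in knockout cells held with any 1 array left out.

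Nqo1, a quinone reductase and a standard readout of NRF2 activity, read 6.50, 7.02 and 6.55 in LPS-treated knockout cells, against 6.50, 6.75 and 6.41 in untreated knockout cells, and 6.46, 6.81 and 6.20 in LPS-treated wildtype cells, against 6.59, 6.21 and 6.60 in untreated wildtype cells. These arrays overlapped throughout and lay little above the median of the unannotated probe sets (5.89 to 6.10 per array). The log2 difference was 0.14 in knockout cells (95% interval -0.26 to 0.54; limma adjusted p = 0.734) and 0.03 in wildtype cells (-0.54 to 0.59; adjusted p = 0.997). These intervals do not show that the gene stayed the same.

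Slc7a11 encodes xCT, the light chain of the cystine-glutamate exchanger that brings in cystine for glutathione. It read 11.86, 12.02 and 12.03 in LPS-treated knockout cells, against 11.13, 10.77 and 11.11 in untreated knockout cells. The wildtype arrays read 11.61, 11.94 and 12.10 with LPS, against 10.91, 10.94 and 10.87 without. No LPS array of either genotype overlapped an untreated one. The log2 difference was 0.97 ± 0.15 in knockout cells (SE, limma adjusted p = 0.00346; 1.95-fold) and 0.98 ± 0.21 in wildtype cells (adjusted p = 0.0485; 1.97-fold). The wildtype value lies just inside the threshold: without 1 of 7 single arrays (untreated knockout 1 or 3, LPS-treated knockout 2 or 3, untreated wildtype 3, LPS-treated wildtype 2 or 3) the adjusted p was between 0.0517 and 0.130. A second, dimmer probe set for Slc7a11 read 8.09, 8.18 and 7.99 in LPS-treated knockout cells, against 7.61, 6.87 and 7.35 in untreated knockout cells (log2 difference 0.81 ± 0.17, adjusted p = 0.0198), and 8.07, 7.85 and 8.10 in LPS-treated wildtype cells, against 7.09, 7.42 and 7.16 in untreated wildtype cells (0.79 ± 0.24, adjusted p = 0.200).

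Gclc and Gclm encode the catalytic and the modifier subunit of glutamate-cysteine ligase, the rate-limiting enzyme of glutathione synthesis. Gclc read 9.20, 9.63 and 9.50 in LPS-treated knockout cells, against 9.04, 9.16 and 8.89 in untreated knockout cells, and 9.10, 9.34 and 9.41 in LPS-treated wildtype cells, against 8.79, 8.79 and 8.71 in untreated wildtype cells. Every LPS array was above every untreated one in both genotypes, yet the differences of 0.42 (95% interval 0.11 to 0.72; limma adjusted p = 0.116) and 0.52 (0.09 to 0.95; adjusted p = 0.348) did not pass over all genes. The wildtype difference passed with 12 separate samples (adjusted p = 0.0211), with these and the replicate block (0.0141) and with array weights (0.0126), and the knockout difference with array weights (0.00855). Gclm read 8.88, 9.29 and 9.25 in LPS-treated knockout cells, against 9.10, 9.18 and 9.17 in untreated knockout cells, where the arrays overlapped (log2 difference -0.01, 95% interval -0.28 to 0.25, limma adjusted p = 0.965). In wildtype cells it read 9.19, 9.30 and 9.24 with LPS, against 8.88, 8.96 and 8.84 without, with no overlap (log2 difference 0.35, 95% interval -0.03 to 0.72, adjusted p = 0.573), and it passed with 12 separate samples and the replicate block (0.0493) and with array weights (0.0495).

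Txnrd1, the cytosolic selenoenzyme that reduces thioredoxin with NADPH, read 11.94, 11.91 and 11.89 in LPS-treated knockout cells, against 10.03, 10.06 and 10.03 in untreated knockout cells. In wildtype cells it read 11.78, 11.63 and 12.01 with LPS, against 9.87, 9.99 and 9.95 without. Within the knockout groups the arrays were almost identical, and the gap between LPS and untreated arrays was far wider than the spread of either. The difference was, on the log2 scale, 1.87 ± 0.11 in knockout cells (SE, limma adjusted p = 8.58e-06; 3.67-fold) and 1.87 ± 0.16 in wildtype cells (adjusted p = 0.000286; 3.64-fold). It ranked 61st of the 661 genes higher in knockout cells and 57th of the 297 higher in wildtype cells, and it passed in both genotypes under all 25 other settings tried.

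Srxn1, sulfiredoxin, restores peroxiredoxins that peroxide has overoxidized. Its log2 signal was 9.22, 9.10 and 9.31 in LPS-treated knockout cells, against 8.59, 8.51 and 8.57 in untreated knockout cells, and 9.41, 9.39 and 9.50 in LPS-treated wildtype cells, against 8.62, 8.58 and 8.42 in untreated wildtype cells. LPS arrays lay above untreated arrays in both genotypes. The difference (log2) was 0.66 ± 0.099 in knockout cells (SE, limma adjusted p = 0.00319; 1.58-fold) and 0.90 ± 0.14 in wildtype cells (adjusted p = 0.0101; 1.86-fold), and both held with any 1 array left out.

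Sod2, the manganese superoxide dismutase of mitochondria, read 10.84, 11.37 and 11.35 in LPS-treated knockout cells, against 10.10, 10.42 and 10.18 in untreated knockout cells. The wildtype arrays read 10.89, 11.32 and 11.14 with LPS, against 10.03, 10.02 and 10.00 without. Replicate 1 was the lowest LPS array in both genotypes, though still above all untreated arrays. On the log2 scale the difference was 0.95 ± 0.17 in knockout cells (SE, limma adjusted p = 0.00774; 1.94-fold) and 1.10 ± 0.24 in wildtype cells (2.14-fold), where the adjusted p of 0.04999 sits at the threshold. The wildtype call was lost in 15 of the 25 other settings, 8 of which each left out 1 array (untreated knockout 1, 2 or 3, LPS-treated knockout 3, untreated wildtype 3, LPS-treated wildtype 1, 2 or 3), with an adjusted p of 0.0512 to 0.134.

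**Figure D2:**
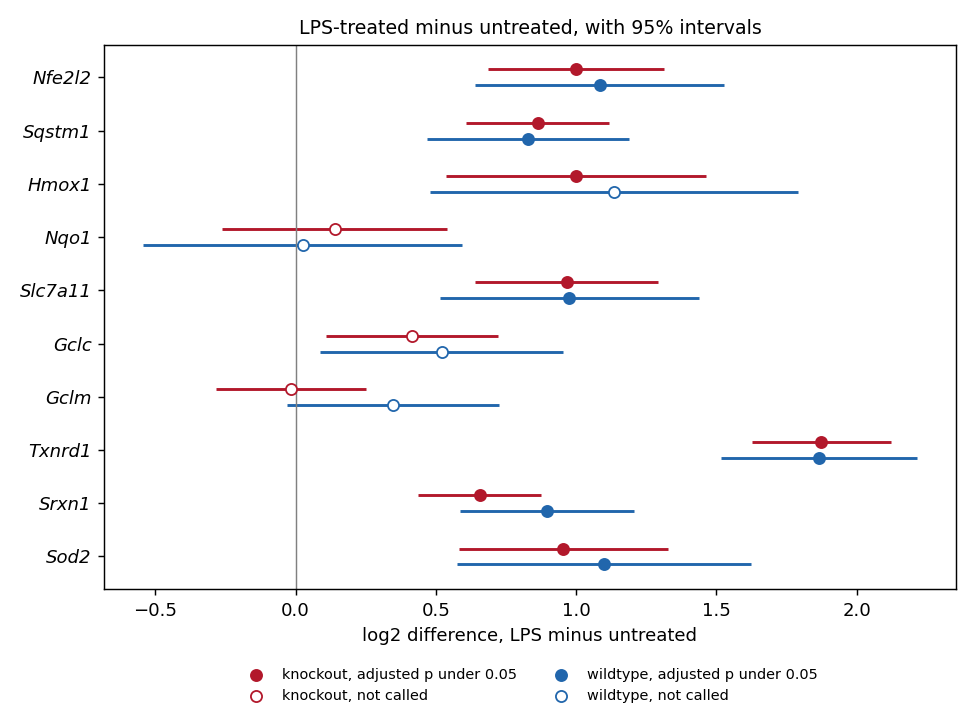
Log2 difference of LPS-treated minus untreated cells for each of the 10 genes in knockout and wildtype cells, with 95% intervals from limma; filled symbols passed the threshold of 0.05 on the adjusted p and open ones did not. Txnrd1 stands at 1.87 in both genotypes, 6 other genes between 0.66 and 1.13, and Nqo1, Gclc and Gclm below 0.53.

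Arrays of LPS-treated and untreated cells did not overlap for 8 of the 10 genes in knockout cells, against 25.1% of all genes, and for 9 of the 10 in wildtype cells, against 30.2%. With 12 separate samples the calls were 7 in knockout cells (9.11% of all genes) and 8 in wildtype cells (8.64%), and at an unadjusted p under 0.05 they were 8 in each (20.3% of all genes in knockout cells and 9.91% in wildtype cells). With the replicate number as a block, in a fit of the 9 arrays of the other 3 groups without the averaged sample, the knockout count was also 7. That fit called 2312 genes in knockout cells, beside 1311 with the averaged sample and 2021 with 12 separate samples, both without a block, so the block is not the only difference. The wildtype count of 6 was sensitive to single arrays: it was 3 without untreated knockout 1, 3 without untreated knockout 3, 2 without LPS-treated knockout 3, 3 without LPS-treated wildtype 2 and 2 without LPS-treated wildtype 3. Knockout and wildtype comparisons were fitted with 1 shared estimate of the spread, and 6 of the 10 genes passed in both. Without the 3 arrays with Y-linked signal, 6 of the 10 passed in knockout cells (4.42% of all genes) and 5 in wildtype cells (2.02%). The LPS-treated wildtype arrays that remain in that fit are all low in small RNA signal.

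The small RNA signal moved with several of these genes. In both LPS groups the array with the usual small RNA signal, replicate 1, was the lowest of the 3 for Nfe2l2, Hmox1, Slc7a11, Gclc, Gclm and Sod2, which is 6 of 10 genes (60%), against 17% of all genes. In LPS-treated wildtype cells replicate 1 was also the only array with Y-linked signal, so the 2 features cannot be told apart there. For Hmox1 the mean of replicates 2 and 3 exceeded replicate 1 by 0.79 (log2) in knockout cells and 0.41 in wildtype cells, and for Sod2 by 0.52 and 0.34. For Txnrd1 the same gap was -0.035 and 0.041, for Srxn1 -0.018 and 0.038, and for Sqstm1 -0.10 and -0.048. Leaving out the 4 arrays of low small RNA signal, an alternative added after the values were seen, sets 1 LPS array against 3 untreated arrays in knockout cells and 1 LPS array against the 1 averaged sample in wildtype cells. The spread then comes from the 3 untreated knockout arrays alone, and the lone samples are assumed to vary like them. In that fit Txnrd1 had a log2 difference of 1.90 in knockout cells (limma adjusted p = 0.00611) and 1.84 in wildtype cells (adjusted p = 0.0197), and Sqstm1 0.93 in knockout cells (adjusted p = 0.0428). All other calls were lost: in knockout cells the difference was 0.74 for Nfe2l2, 0.86 for Slc7a11, 0.67 for Srxn1, 0.61 for Sod2 and 0.47 for Hmox1. In wildtype cells it was 0.92 for Nfe2l2, 0.86 for Sqstm1, 0.70 for Slc7a11, 0.87 for Srxn1 and 0.88 for Sod2 (limma adjusted p of 0.129 to 0.365), against 1.08, 0.83, 0.98, 0.90 and 1.10 with all arrays. This fit has fewer arrays, so a lost call does not by itself show a smaller difference. The part of the small RNA signal in these results was not tested beyond these values.

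Markers of other marrow cells moved with LPS too. The mean log2 signal of 5 inflammatory monocyte markers was 8.27 to 8.85 in LPS-treated knockout cells, against 9.65 to 9.92 in untreated knockout cells, and 8.50 to 9.01 in LPS-treated wildtype cells, against 9.94 to 10.06 in untreated wildtype cells, and 3 of the 5 passed as lower in knockout cells and 1 in wildtype cells. The mean of 10 neutrophil markers was 7.36 to 7.78 in LPS-treated knockout cells, against 8.30 to 8.78 in untreated knockout cells, and 7.14 to 8.13 in LPS-treated wildtype cells, against 8.68 to 8.75 in untreated wildtype cells, and 5 of the 10 passed as lower in knockout cells and 1 in wildtype cells. With 12 separate samples, 3 of the 5 monocyte markers were lower in knockout cells and 4 in wildtype cells. Of the 10 neutrophil markers, 7 were then lower in each genotype. Of 7 macrophage markers, Lyz2 passed as lower in knockout cells, and with 12 separate samples 2 were lower in knockout cells and 1 in wildtype cells. The mean of the 7 was 9.62 to 10.69 in LPS-treated knockout cells, against 10.58 to 10.91 in untreated knockout cells, and 10.15 to 10.57 in LPS-treated wildtype cells, against 10.75 to 10.77 in untreated wildtype cells. Of 4 eosinophil markers, Prg2 passed as lower in both genotypes (log2 difference -1.05 in knockout and -1.52 in wildtype cells), and the mean of the 4 was 6.21 to 6.55 in LPS-treated knockout cells, against 6.67 to 7.14 in untreated knockout cells, and 6.22 to 6.47 in LPS-treated wildtype cells, against 6.88 to 6.98 in untreated wildtype cells. Of 5 stromal markers, Lum passed as lower in knockout cells, and no mast cell, T cell, B cell, NK cell or erythroid marker passed in either genotype. Of the 9 dendritic cell markers, Zbtb46 was higher with LPS in knockout (0.67) and wildtype cells (0.88), and Irf4 in knockout cells (0.58). The other 7 in knockout cells and 8 in wildtype cells did not pass, and the median log2 differences of the list were 0.07 and 0.09. In wildtype cells the mean of Irf4 was 11.77 with LPS and 11.14 without. With 12 separate samples, 2 of the 9 were higher in each genotype. Among those that did not pass, Flt3, Ciita and Batf3 had lower means with LPS in both genotypes. No monocyte or macrophage marker lay at or under the level of probe sets that carry no gene, in any group, and 1 of the 10 neutrophil markers was there after LPS in each genotype, as was 1 of the 4 eosinophil markers in every group. The part of these cells in the differences above was not tested.

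Between genotypes none of the 10 genes passed. In untreated cells 0 of 10 were called by limma (0.00451% of all genes), 0 at an unadjusted p under 0.05 (4.04%) and 0 with 12 separate samples (0.437%). The knockout minus wildtype differences lay between -0.11 for Hmox1 and 0.27 for Gclc, with adjusted p of 0.970 to 0.990, and the 95% intervals spanned -0.76 to 0.74. Arrays of the genotypes did not overlap for 4 of the 10 genes, against 29.3% of all genes. After LPS, 0 of 10 were called with either count of samples (0.00902% of all genes), 1 at an unadjusted p under 0.05 (3.95%), and the differences lay between -0.24 for Hmox1 and 0.20 for Nqo1, with intervals spanning -0.70 to 0.60. The one gene at an unadjusted p under 0.05 was Srxn1: its 3 LPS-treated knockout arrays, given above, were all below the 3 LPS-treated wildtype arrays (log2 difference -0.22, 95% interval -0.44 to -0.0054, limma adjusted p = 0.999), the only such separation among the 10 genes (7.78% of all genes). Over both treatments together 0 of 10 passed (0.0135% of all genes), 0 at an unadjusted p under 0.05 (3.3%) and 0 with 12 separate samples (0.0271%), with differences of -0.17 for Hmox1 to 0.21 for Gclc. These intervals bound the differences and do not show that the genotypes are alike. Arc, the gene knocked out, was itself not called in untreated cells in this fit (log2 difference -1.48 ± 0.20, SE, limma adjusted p = 0.177). It was called there with 12 separate samples (adjusted p = 0.000800), and after LPS with 10 samples (adjusted p = 0.00591). In untreated cells the fit with 10 samples can thus miss a difference of that size.

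**Figure D3:**
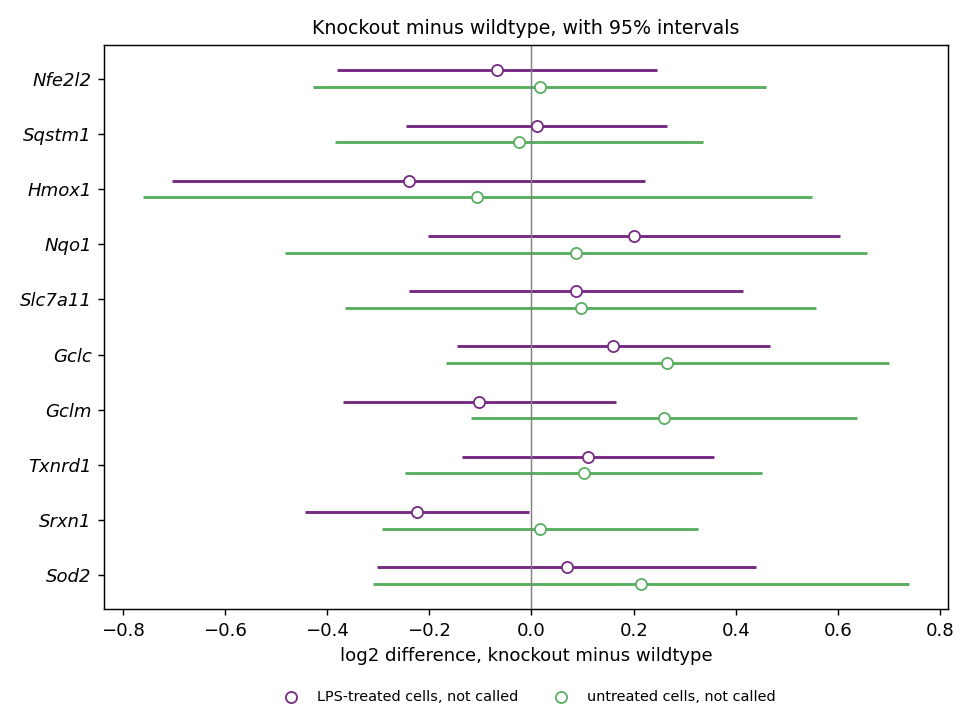
Log2 difference of knockout minus wildtype cells for each of the 10 genes, after LPS and in untreated cells, with 95% intervals from limma. After LPS all intervals but that of Srxn1 (-0.44 to -0.0054) include 0, and no gene passed on the adjusted p.

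Whether LPS acted differently in the 2 genotypes was tested by the interaction. Of the 10 genes 0 were called by limma (0% of all genes), 0 at an unadjusted p under 0.05 (4.43%) and 0 with 12 separate samples (0.248%). The most negative interaction was that of Gclm, -0.36 (95% interval -0.82 to 0.10), whose LPS difference was -0.01 in knockout cells and 0.35 in wildtype cells, and the most positive was Nqo1 at 0.11. Intervals over the 10 genes spanned -0.94 to 0.81. Hmox1, called in knockout cells and not in wildtype cells, is not shown to differ between them.

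Other genes of the same pathways were read from 7 lists, given here as counts over their measured members, always with LPS against without it in 1 genotype. Of 12 regulators of NRF2, 4 were higher and 1 lower with LPS in knockout cells and 1 was higher in wildtype cells, with median log2 differences of 0.25 and 0.29. With 12 separate samples, 5 were higher in each genotype: Atf3, the 3 small MAF genes and Atf4, an activator of amino acid supply genes (0.48 in knockout and 0.61 in wildtype cells). Atf3, a stress-induced transcription factor of the ATF/CREB family, had the largest increase, 1.57 ± 0.13 in knockout cells (SE, limma adjusted p = 8.9e-05) and 1.74 ± 0.19 in wildtype cells (adjusted p = 0.00121). The small MAF partners Maff, Mafg and Mafk rose with LPS in knockout cells by 0.78, 0.59 and 0.54 (adjusted p = 0.0183, 0.0469 and 0.0461), and their wildtype differences were 0.86, 0.73 and 0.84 (adjusted p = 0.124, 0.172 and 0.0676). Keap1, the inhibitor of NRF2, fell with LPS in knockout cells, at 7.31 to 7.44 with LPS, against 7.91 to 7.97 without (log2 difference -0.54 ± 0.096, adjusted p = 0.00834). In wildtype cells it was 7.52 to 7.66 with LPS, against 7.46 to 7.76 without (-0.06 ± 0.14, adjusted p = 0.980), and the interaction of -0.47 did not pass (adjusted p = 0.897).

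The glutathione and cystine list had 2 of 14 genes higher with LPS in each genotype and none lower, with medians of 0.01 in knockout cells and 0.23 in wildtype cells. Slc3a2, the heavy chain that pairs with xCT, was higher by 0.84 ± 0.11 in knockout cells (SE, limma adjusted p = 0.00136) and 0.88 ± 0.16 in wildtype cells (adjusted p = 0.0197), and its knockout arrays read 11.64 to 11.90 with LPS, against 10.88 to 10.97 without. Both chains of the cystine exchanger were thus higher after LPS. Chac1, a glutathione-degrading enzyme, was higher in knockout cells by 0.57 ± 0.10 (adjusted p = 0.00966), and Slc1a4, a neutral amino acid transporter, in wildtype cells by 0.90 ± 0.19 (adjusted p = 0.0468). In the other genotype neither passed, though the means were higher with LPS there too. Chac1 had 7.53 with LPS and 6.94 without in wildtype cells, and Slc1a4 had 8.68 and 8.18 in knockout cells. With 12 separate samples 4 genes were higher and 1, Chac2, a relative of Chac1, was lower in each genotype (log2 difference -0.86 in knockout and -0.82 in wildtype cells).

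Among 15 genes of haem and iron handling, 1 was higher and 2 were lower with LPS in knockout cells, and 1 was higher in wildtype cells (medians -0.24 and 0.00). Flvcr1, a haem exporter, was higher by 0.73 ± 0.12 in knockout cells (SE, limma adjusted p = 0.00471) and 0.83 ± 0.17 in wildtype cells (adjusted p = 0.0368). Slc40a1, which encodes the iron exporter ferroportin, fell in knockout cells (log2 difference -0.73 ± 0.13, adjusted p = 0.0082), and its wildtype difference was -0.64 ± 0.18 (adjusted p = 0.165). Hebp1, a haem-binding protein, fell in knockout cells (-0.63 ± 0.16, adjusted p = 0.0425), with a wildtype difference of -0.58. With 12 separate samples 4 genes of this list were lower in knockout cells, Hmox2 and Aco1 among them, and 2 in wildtype cells, Slc40a1 and Hebp1. Among 14 autophagy genes, which stand beside Sqstm1, 2 were higher and 1 was lower with LPS in knockout cells (medians 0.02 in knockout and 0.19 in wildtype cells). The kinase gene Tbk1 rose by 0.72 ± 0.12 in knockout cells (adjusted p = 0.00504) and the ubiquitin ligase gene Traf6 by 0.48 ± 0.11 (adjusted p = 0.0253), while the cargo receptor gene Nbr1, a relative of Sqstm1, was lower (-0.51 ± 0.11, adjusted p = 0.0202). In wildtype cells the mean log2 signal of Tbk1 was 10.80 with LPS and 10.04 without. That of Traf6 was 10.51 and 9.85, and that of Nbr1 8.62 and 9.04. None of the 14 passed in wildtype cells in the fit with 10 samples, where 5 had an unadjusted p under 0.05, and 4 were higher and 1 lower with 12 separate samples.

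The remaining enzymes of the antioxidant system mostly did not pass. Of 22 other NRF2 target enzymes (glutathione transferases, malic enzyme, thioredoxin and others), 0 were higher and 1 was lower with LPS in knockout cells, and 0 passed in wildtype cells in limma (1 at an unadjusted p under 0.05, and 1 with 12 separate samples), with medians of -0.02 and 0.07. The gene that was lower was Idh1, which makes NADPH from isocitrate (log2 difference -0.69 ± 0.12, limma adjusted p = 0.0082), and its wildtype difference was -0.53 ± 0.17 (adjusted p = 0.246). Of the 22, 4 in LPS-treated knockout cells and 3 in each other group lay at or under the level of probe sets without a gene. That limits what the differences of those genes can show. Of 20 superoxide and peroxide enzymes 0 passed in limma in either genotype, also with 12 separate samples, while 7 in knockout cells and 0 in wildtype cells had an unadjusted p under 0.05 (medians -0.15 and -0.07). The 2 with the smallest p in knockout cells were Prdx4, an endoplasmic reticulum peroxiredoxin (-0.51 ± 0.17, adjusted p = 0.112), and Glrx2, mitochondrial glutaredoxin (-0.33 ± 0.11, adjusted p = 0.121). Of 8 NADPH oxidase genes 0 passed in either genotype in the limma fit with 10 samples (medians -0.01 and -0.05). An unadjusted p under 0.05 was found for 1 in knockout cells and 0 in wildtype cells, and 1 was lower in knockout cells with 12 separate samples. That gene, Cyba, encodes the p22phox subunit (-0.45 ± 0.13, adjusted p = 0.0703). Some genes are on more than 1 of these lists, and no gene of any list passed between genotypes or in the interaction.

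**Figure D4:**
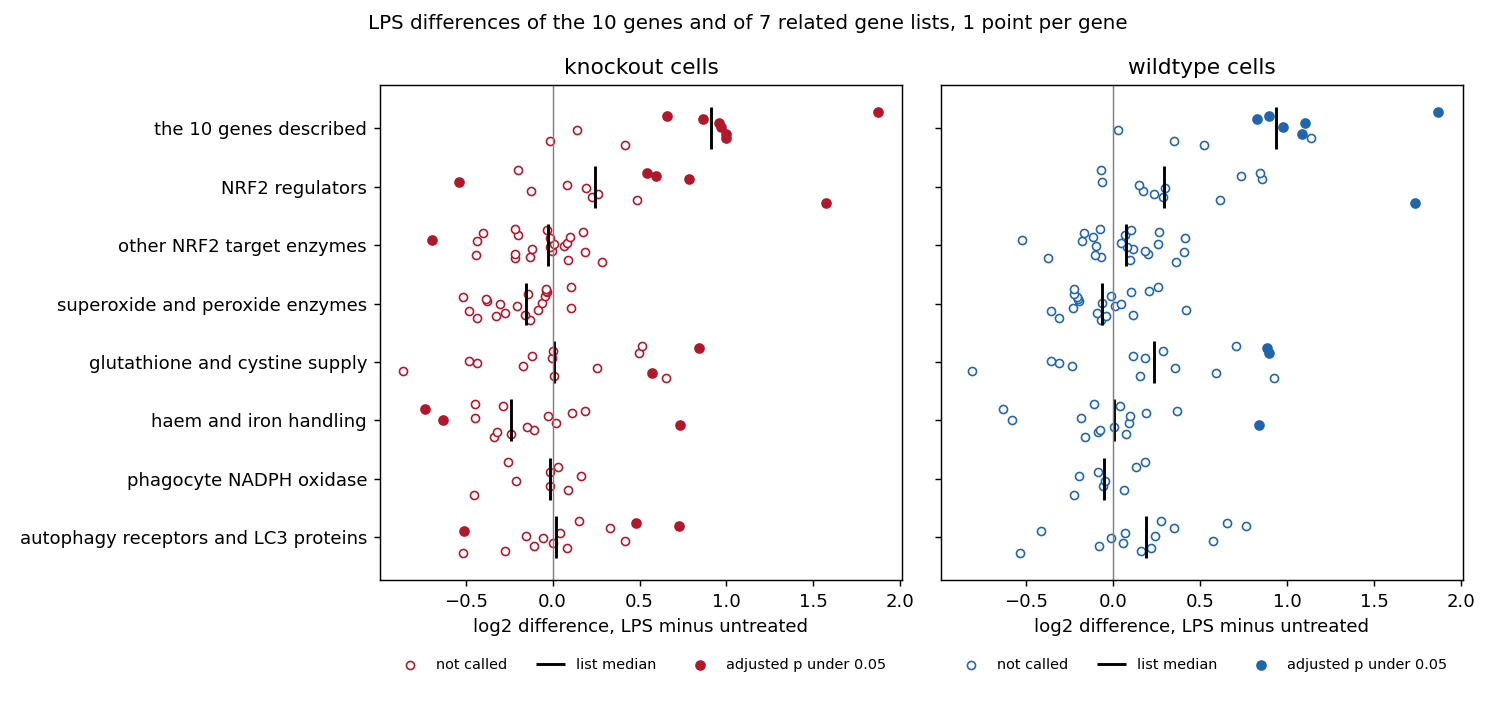
Log2 difference of LPS-treated minus untreated cells for the 10 genes and each measured gene of the 7 pathway lists, in knockout cells (left) and wildtype cells (right); filled points passed the threshold of 0.05 on the adjusted p and black lines are list medians. Regulators of NRF2 reach 1.57 and 1.74 (Atf3), while the 20 superoxide and peroxide enzymes have no filled point.

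Among 11081 genes of above-median signal, those most like Txnrd1 over the 10 counted samples were Taf4b (Pearson's r = 0.997), Snx18 (0.995) and Fosl2 (0.995). Those most like Hmox1 were Htra4 (0.984), Lmbrd1 (0.977) and Ereg (0.969), and those most like Sod2 were Klf7 (0.992), Ltv1 (0.989) and Slc38a1 (0.986). These r describe samples that fall into LPS-treated and untreated ones, and no order within either is read from them.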

How the data were processed

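Total RNA of 12 cultures was measured on Affymetrix arrays. The values used are log2 signals as the authors deposited them, already normalized, 1 for each probe set on each array. For background correction and array normalization, the method was not given in the sources used here. Beyond that, the submitters' processing notes name limma, with no version. Of 34390 probe sets, 23521 carried 1 gene, 1814 several and 9055 none, and the 1-gene probe sets gave 22180 genes, each represented by its brightest such probe set on average. Probe sets with several genes or none entered no test.

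Tests were two-sided moderated tests of limma 3.58.1 (R 4.3.3) on group means, p-values adjusted over all 22180 genes by the Benjamini-Hochberg method. The untreated wildtype arrays were averaged into 1 sample, which left 10 samples and 6 residual degrees of freedom, and this lone sample is taken to vary as the others do. LPS comparisons of the 2 genotypes share no arrays, while each comparison between genotypes uses arrays of the LPS comparisons. The code was tested on simulated data. The number of arrays limits the precision. Whether replicates came from separate animals or separate cultures is not said in the labels, and p-values therefore cover only the spread among these samples.

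Same-numbered arrays of different groups were compared by the correlation of residuals. It was 0.196 to 0.381 for same-numbered LPS-treated and untreated knockout arrays, 0.228 to 0.358 for LPS-treated knockout and wildtype arrays, and 0.145 to 0.196 for untreated knockout and LPS-treated wildtype arrays, all above 0.1. Between untreated wildtype arrays and those of the 3 other groups it was -0.053 to 0.113. Differently numbered arrays were not compared, so these values alone do not show whether the numbers mark a shared source. Of the knockout arrays only those numbered 2 had Y-linked signal, both untreated and LPS-treated. The main fit does not use the replicate numbers.

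The genes, the lists and the averaging were chosen with earlier results of these data known. Named genes are the 10, up to 4 of each list per comparison past the threshold by size (otherwise at most the 2 with the smallest p), and, for the 3 genes with the widest range of group means, the 3 genes of highest Pearson r. Atf4, Chac2, Hmox2 and Aco1 were named after their values were seen. Promoter windows come from RefSeq (GRCm38.p6). Alternatives comprised 25 settings, 12 of which left out 1 array each, and 2 were added after the values were seen.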

Additional observations from a re-analysis of the deposited data

How the results depend on the processing

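The 25 other settings reversed no call. In knockout cells the count of 7 became 2 without the 4 arrays of low small RNA signal, and 6 to 7 with 1 array left out. In wildtype cells the count of 6 became 3 after quantile normalization, 1 in a fit of only the 2 groups, 3 with a term for low small RNA signal, 1 without those arrays, and 2 to 7 with 1 array left out. It was 8 with 12 arrays kept separate. A replicate block, fitted without averaging, gave counts of 7 in knockout cells and 9 in wildtype cells, and 0 in each genotype comparison and the interaction. Same-numbered LPS-treated and untreated wildtype arrays had residual correlations of only -0.028 to 0.0087. Array weights also gave 9 in wildtype cells. Between genotypes and in the interaction the count stayed 0 under every setting run. Over all genes, the count of 1311 in knockout cells ranged over 562 to 4698 under the other settings, that of 349 in wildtype cells over 76 to 2437, and those of 1, 2, 3 and 0 in the untreated, LPS-treated, combined and interaction comparisons reached 257, 15, 39 and 280. In the setting that kept genes above the median signal, Nqo1 was not tested. The cause of these shifts was not tested. The low signal of Nqo1 limits what its differences can show.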
